A study of Mus musculus with 6 samples.

Results

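The genes examined here are 8 genes of the tissues that hold the tooth in its socket, *Postn*, *Tnn*, *Tnc*, *Tnmd*, *Pthlh*, *Pth1r*, *Spon1* and *Mkx*. They were taken by name from the authors' table of 19270 genes, in which all 8 are listed. The dental follicle is the loose mesenchyme around the forming tooth, and it gives rise to the periodontal ligament, the cementum and part of the alveolar bone. The ligament is a collagen tissue rich in periostin and tenascins, and it carries regulators that it shares with tendon. Parathyroid hormone-related protein (PTHrP), made by dental epithelium and by follicle cells, acts through the receptor PTH1R on follicle cells and is needed for tooth eruption. In the continuously growing mouse incisor, these tissues border the proximal pulp, where the mesenchymal stem cells reside.

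Bulk RNA-seq compared the proximal incisor mesenchyme of control mice (3 samples) with that of mice (3 samples) carrying *Gli1-CreER* and the floxed allele *Arid1b* fl/fl. Both groups received tamoxifen at 1 month of age, and the tissue was taken 4 days after induction. Tamoxifen activates CreER in cells that express *Gli1*, and these cells are meant to lose *Arid1b*, a subunit of the BAF chromatin remodeling complex. The controls are labelled as wild type, whereas the methods describe them as tamoxifen-injected *Arid1b* fl/fl mice. *Gli1-CreER* is a knock-in at the *Gli1* locus, so the mutants also carry an altered *Gli1* allele, and the tissue was dissected as a whole with cells in which Cre was not active. The libraries held an estimated 39.1 to 39.9 M reads in the controls and 37.1 to 49.6 M in the mutants. Each value below is the authors' mean of a normalized signal over the libraries of a group. It has no SD because the values used here are group means, without values per gene for single libraries. Whether a difference is larger than the spread between samples was therefore not tested, and "past the fold" means a mutant mean more than 1.5-fold above or below the control mean.

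*Arid1b* itself (chromosome 17, 4994332 to 5347656 on GRCm38) was at 97.6 in control and 38.0 in mutant tissue (ratio 0.390). *Gli1* had means of 106.4 and 46.1, a ratio of 0.434, while *Ptch1*, a Hedgehog target gene, had means of 726.2 and 732.1. The groups also differed in sex-linked transcripts. *Xist* had a control mean of 3368 and a mutant mean of 813.8, and the Y-linked *Ddx3y*, *Eif2s3y*, *Uty* and *Kdm5d* were at least 631-fold, 245-fold, 288-fold and 265-fold higher in the mutants, taken against a floor of 3 reads in every control library. Effects of genotype and of sex cannot be told apart in this comparison.

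Of the 8 genes, *Spon1* and *Pthlh* had mutant means past the fold above the controls and no gene was past it below. Among all genes, 7.37% were higher and 5.80% lower past the fold. When only the 10519 genes whose mean reached 10 in 1 group were counted, these shares were 2.49% and 1.02%. Apart from *Tnmd*, each of the 8 genes reached a mean of 10 in both groups. *Postn*, *Tnmd* and *Mkx* were also higher in the mutant mean, and *Tnn*, *Tnc* and *Pth1r* were lower, all 6 short of the fold. The median log2 ratio of mutant to control was 0.24 over the 8 genes, beside 0.0022 over all genes. In whole tissue, fewer cells of a type and less RNA per cell cannot be told apart.

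**Figure D1:**
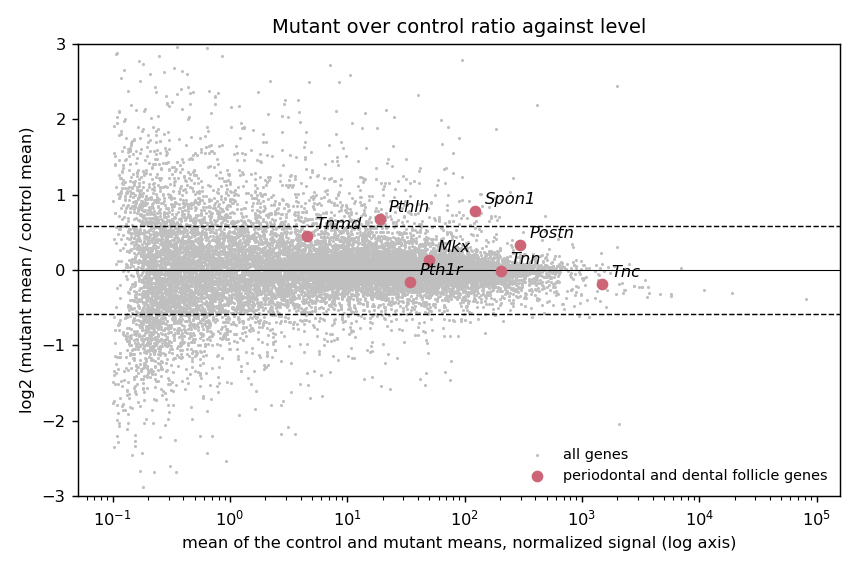
Log2 ratio of the mutant to the control mean (vertical axis) against the mean of both groups in normalized signal (horizontal log axis), with 19176 genes as grey points, the 8 periodontal and dental follicle genes in red, and dashed lines at 1.5-fold; 94 genes lie outside the axes. *Spon1* and *Pthlh* lie above the upper line, at log2 ratios of 0.78 and 0.68, and the other genes lie between the lines.

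The levels of the genes spanned a wide range. Divided by the length of all annotated exons, the control means ran in the order *Tnc*, *Tnn*, *Postn*, *Pth1r*, *Mkx*, *Pthlh*, *Spon1* and *Tnmd*, from 205.1 per kb for *Tnc* to 2.82 per kb for *Tnmd*. The median gene had a control level of 3.25 per kb, so that *Tnmd* lay below it and the other genes above. Some neighbours in this order were close. *Tnn* and *Postn* had control levels of 35.2 and 30.4 per kb, and with the longest protein-coding transcript as the length *Postn* moved ahead of *Tnn*, at 82.4 against 35.2 per kb. *Spon1* moved from the seventh to the fifth place under the same change. Since the spread between samples was not analysed here, no pair of neighbours can be said to differ. Per kb of exon, the order of the mutant means differed from that of the control means. In the mutants *Postn* lay at 38.3 and *Spon1* at 15.1 per kb, above *Tnn* at 34.9 and *Pth1r* at 11.2 per kb. By the longest protein-coding transcript, *Postn* lay above *Tnn* in both groups, at 103.9 against 34.9 per kb in the mutants. Whether the order differs beyond the spread between samples was not tested.

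**Figure D2:**
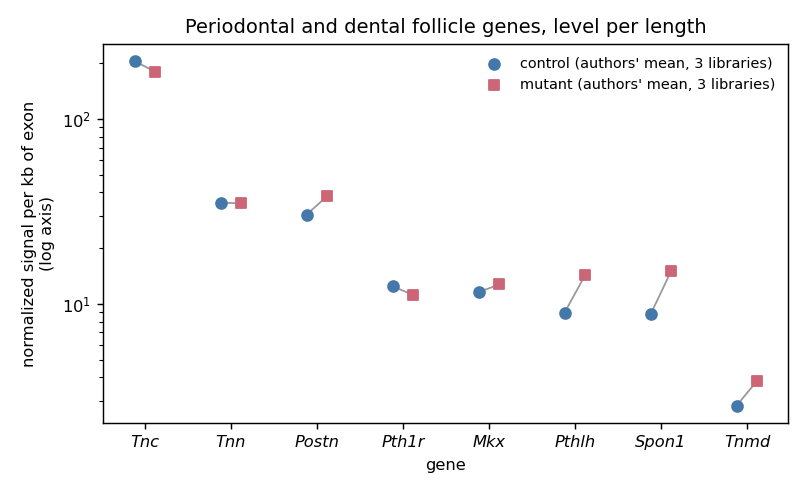
Normalized signal per kb of annotated exon (vertical log axis) for the 8 genes (horizontal axis), with the authors' control mean as blue circles and mutant mean as red squares, each a mean of 3 libraries with no error available. *Tnc* is the highest at 205.1 per kb in the controls and *Tnmd* the lowest at 2.82 per kb.

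Of the 8 genes, *Spon1* had the largest ratio. It encodes F-spondin, a secreted matrix protein with thrombospondin repeats, and lies on chromosome 7 from 113765998 to 114043370 (GRCm38), with 16 exons in its longest protein-coding transcript. Its mean was 91.3 in controls against 156.6 in mutants, a ratio of 1.71. By ratio it stood at position 156 from the top among the 10519 genes that reached a mean of 10. Of the 2000 genes with a mean over both groups between 100 and 1000, 1.35% were higher past the fold, and the central 95% of these genes ended at a log2 ratio of 0.33. *Spon2*, a related gene, had means of 0.997 and 2.69, below the minimum of 10.

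*Postn* encodes periostin, the matrix protein of the fasciclin family that marks the periodontal ligament (chromosome 3, 54361109 to 54391037). Its mean was 264.2 in controls against 333.0 in mutants, a ratio of 1.26. The log2 ratio of 0.3341 lay just past the upper end, at 0.3339, of the central 95% of genes of similar level. *Tgfbi*, which encodes a related secreted fasciclin protein, had means of 976.4 and 774.1 in the same samples. Per kb of exon, the controls held 8.53 times as much *Tgfbi* as *Postn* and the mutants 5.36 times as much. With the longest protein-coding transcript as the length of both genes, these ratios were 4.37 and 2.75. The means of these relatives thus differed between the groups in opposite directions, both short of the fold.

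Tenascins are large glycoproteins that modulate cell adhesion to the matrix, and the 2 examined here were short of the fold. *Tnc* (chromosome 4, 63959785 to 64047015) encodes tenascin-C and had means of 1594 in controls against 1400 in mutants, a log2 ratio of -0.19. *Tnc* was itself the median gene by ratio among the 57 genes with a mean of 1000 or more. *Tnn* (chromosome 1, 160085029 to 160153580) encodes tenascin-W and had means of 204.9 and 203.3, a ratio of 0.992, the closest to 1 among the 8 genes. The other tenascin genes were low, with means of 2.89 and 3.45 for *Tnr* and 0.690 and 0.595 for *Tnxb* in controls and mutants. Exons of *Tnc* overlap those of *8030451A03Rik* on the opposite strand, and use of strand in the counting is not given in the sources used here, so reads of both cannot be told apart. That transcript had means of 0.382 and 0.302.

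*Tnmd* and *Mkx* belong to the program shared by ligament and tendon. *Tnmd* encodes tenomodulin, a membrane glycoprotein of mature tendon and ligament cells, and had means of 3.81 in controls against 5.21 in mutants, a ratio of 1.37. Those values correspond to about 146 and 225 reads per library. Among the 4433 genes with a mean between 1 and 10, 8.75% were higher past the fold and the central 95% of log2 ratios ended at 1.12, so that the log2 ratio of 0.45 for *Tnmd* lay within it. *Tnmd* is X-linked (chromosome X, 133850980 to 133865577), and the 363 X-linked genes that reached a mean of 10 had a median log2 ratio of -0.03. The part of the sex-linked difference in the value of *Tnmd* was not tested. Its relative *Cnmd*, which encodes chondromodulin, had means of 39.6 and 32.3, and per kb of exon it was 7.63 times as high as *Tnmd* in the controls and 4.56 times as high in the mutants.

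*Mkx* encodes Mohawk, a homeobox factor needed for tendon and ligament collagen (chromosome 18, 6934518 to 7004780). Its means were 47.4 and 52.1, a ratio of 1.10. An annotated transcript on the same strand, *AC148004.2*, shares exon sequence with *Mkx*, so reads of both may have been assigned to either. *AC148004.2* has no entry in the authors' table, and no mean of it can be set beside that of *Mkx*. *Irx3* and *Irx5*, homeobox genes of the related Iroquois family, had log2 ratios of 0.13 and -0.06. *Irx1* and *Irx2*, of the same family, lay under the minimum of 10, with means of 1.26 and 2.84 for *Irx1* and 1.31 and 3.09 for *Irx2*. *Scx*, which encodes scleraxis and defines tendon and ligament progenitors, was close to the floor, with means of 0.344 and 0.472 or about 12.3 and 19.5 reads per library. By control level per kb, *Tnmd* stood at percentile 47.3 of the 18840 genes with a length, and *Postn*, *Tnn* and *Tnc* at percentiles 93.2, 94.4 and 99.3.

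For the PTHrP axis, the ligand and the receptor had ratios on opposite sides of 1. *Pthlh* encodes PTHrP (chromosome 6, 147252101 to 147264183) and had means of 14.5 in controls against 23.2 in mutants, a ratio of 1.60. It stood at position 206 from the top by ratio among the 10519 genes, and 2.33% of the 8254 genes with a mean between 10 and 100 were higher past the fold. *Pth1r*, the G protein-coupled receptor (chromosome 9, 110722085 to 110747145), had means of 36.4 and 32.6, a ratio of 0.896. Per kb of exon, the *Pthlh* level was 0.721 times that of *Pth1r* in the controls and 1.29 times in the mutants, or 0.574 and 1.02 times by the longest protein-coding transcript. An exon of *Pth1r* overlaps *Myl3* on the opposite strand, so the value of *Pth1r* is uncertain without strand information. *Myl3* has no entry in the authors' table.

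Genes that act downstream of PTH1R were listed separately. Of 22 listed G proteins, cyclases, kinases and effectors, 21 were in the table and 20 had a mean of at least 10 in 1 group. None of these 20 was past the fold, beside 2.49% higher and 1.02% lower over all genes at that level, so that a count of 0 does not set the list apart. Their median log2 ratio was -0.05, with 8 above 0 and 12 below, beside 0.0013 over all genes at that level. The most abundant was *Gnas*, the stimulatory G protein subunit, with means of 1113 and 1046. The extremes were *Rgs2*, a regulator of G protein signaling known to be induced by cAMP, at means of 51.0 and 63.9, and the phosphodiesterase *Pde4d* at 57.4 and 44.6. *Tnfsf11*, which encodes the osteoclast factor RANKL, had means of 0.315 and 0.920 and was not read further at about 11.2 and 38.9 reads per library.

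Dental epithelium is another known source of *Pthlh*, and its markers had higher mutant means. All 11 listed markers were past the fold above, beside 2.49% of all genes at that level, with a median log2 ratio of 1.15, and no marker was listed at 0. Their summed mean was 1749 in controls against 10574 in mutants, and the most abundant in the controls was *Ambn*, which encodes the enamel matrix protein ameloblastin, at 617.4 and 3360. The enamel genes had the largest ratios, with 14.6 for *Enam* and 10.9 for *Amelx*, while *Krt5*, *Krt14* and *Shh* had ratios of 2.32, 2.02 and 1.69. The part of epithelium in the differences of *Pthlh* and *Spon1* was not tested.

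Other matrix genes of ligament and follicle did not share 1 direction. Of 19 listed genes, 18 had a mean of at least 10 in 1 group, 1 of them past the fold above, 1 below and 16 short of it, beside 2.49% above and 1.02% below over all genes at that level, with a median log2 ratio of -0.07. *Ogn*, which encodes the small proteoglycan osteoglycin, had means of 115.7 and 207.2. *Fmod*, which encodes the collagen-binding proteoglycan fibromodulin, had means of 1140 and 748.8. *Lum*, the most abundant of the list, had means of 2177 and 1748, and the ligament markers *Aspn* and *Col12a1* had log2 ratios of -0.28 and -0.21. *Fbn1* and *Dcn*, with log2 ratios of -0.52 and -0.45, were lower in the mutants but short of the fold, whereas *Col3a1* was at 0.31.

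Tendon and ligament genes mostly lay under the minimum mean of 10. Of 18 listed, 17 were in the table and 6 had a mean of at least 10 in 1 group. Of these 6, 2 were past the fold above, beside 2.49% of all genes at that level, and the median log2 ratio was -0.10. None of the 3 with a mean of at least 10 in both groups was past the fold, beside 1.68% above and 0.725% below over all such genes. The 2 past the fold reached the minimum in the mutants only, *Angptl7*, a secreted angiopoietin-like protein, at means of 1.12 and 22.2, and *Egr1*, an immediate early transcription factor, at 7.96 and 14.7. The most abundant, *Col11a1*, had means of 673.2 and 545.7, and *Thbs4* had means of 21.7 and 15.7. *Cilp* had a control mean at or under 3 reads per library, and against that floor it was at least 3.81-fold higher in the mutants, at a mean of 0.395.

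Matricellular proteins, which sit in the matrix and signal to cells as periostin and tenascins do, had 4 genes past the fold above and none below among the 13 of 15 in the table with a mean of at least 10 in 1 group, beside 2.49% above and 1.02% below over all genes at that level. All 13 reached it in both groups. *Spp1* (osteopontin) had means of 38.9 and 99.2, *Ccn1* 13.4 and 23.1, and *Sparcl1* 80.8 and 130.2. *Thbs2* was the fourth, with a ratio of 1.57. The median of the list was -0.04 on the log2 scale, with 6 genes above 0 and 7 below. Among the latter were *Sparc* at means of 3618 and 3303 and *Fn1* at 1469 and 1140. Of the 15 listed relatives of the 8 genes in the table, 7 had a mean of at least 10 in 1 group and none was past the fold, with a median log2 ratio of -0.06.

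Receptors of the matrix proteins included 2 genes past the fold above and none below among the 11 with a mean of at least 10 in 1 group. Over all genes at that level, 2.49% were past it above and 1.02% below. The median log2 ratio of the 11 was 0.19. Of the 10 receptors with a mean of at least 10 in both groups, 1 was past the fold above, beside 1.68% of the 10069 genes that did so. *Itgb6*, an integrin chain typical of epithelium, had means of 5.72 and 21.2 and reached the minimum in the mutants only. *Egfr*, to which tenascin-C repeats can bind, had means of 12.9 and 24.1. The periostin-binding integrins *Itgav* and *Itgb5* had log2 ratios of 0.26 and 0.46, and *Itgb1*, the most abundant, was at 0.03.

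Signals and transcription factors of the follicle were short of the fold with 2 exceptions. Of 17 genes, *Bmp3* was past the fold above at means of 30.8 and 98.4, and *Gli1* was past it below as given. The mutants carry the *Gli1-CreER* knock-in at the *Gli1* locus, and *Gli1* is counted in the list shares of this paragraph. The other 15 genes were short of the fold, and the median log2 ratio of the list was 0.03. The shares over all genes at that level were 2.49% above and 1.02% below. *Runx2*, *Twist1* and *Pax9*, transcription factors of tooth mesenchyme, had log2 ratios of 0.24, 0.22 and -0.0037, and *Msx1*, *Msx2* and *Sp7*, also transcription factors, had -0.15, -0.21 and -0.10. Over the 7 lists of related genes, 92 genes had a mean of at least 10 in 1 group. Of these, 10.9% were higher and 2.17% lower past the fold, beside 2.49% and 1.02% of all genes at that level. *Angptl7*, *Egr1* and *Itgb6* reached that minimum in the mutants only. Of the 87 list genes with a mean of at least 10 in both groups, 8.05% were higher and 2.30% lower, beside 1.68% and 0.725% over the 10069 genes of the table that did so. The lists were chosen with earlier results known, so nothing particular to them is read from these shares.

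**Figure D3:**
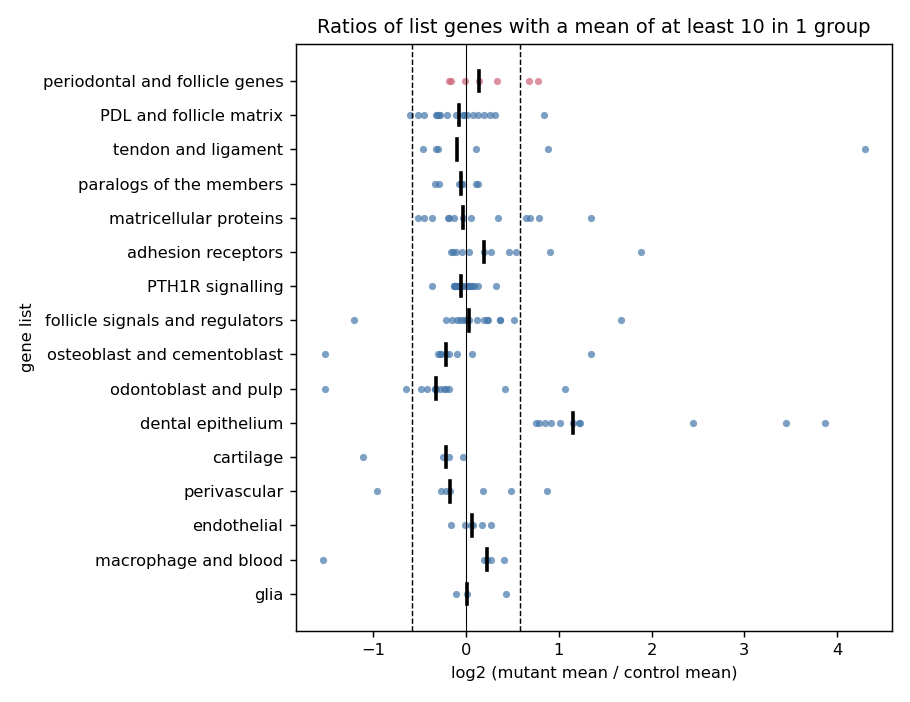
Log2 ratio of the mutant to the control mean (horizontal axis) for each gene with a mean of at least 10 in 1 group, by gene list (vertical axis), the list of the 8 genes in red and the other lists in blue, with a black tick at the list's median and dashed lines at 1.5-fold. Of the 8 genes, 7 reached that mean and *Tnmd* did not. All 11 dental epithelium genes lie right of the upper line, and the 20 PTH1R signalling genes lie between the lines. Of all genes at that level, 2.49% were past the fold above and 1.02% below, so that 0 of 20 does not set a list apart.

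Markers of the labelled tissue and of its neighbours were also compared. The odontoblast gene *Dspp* had means of 5179 and 4136, and the 13 odontoblast and pulp markers had a median log2 ratio of -0.32, with *Tac1* past the fold above and *Dmp1* and *Sall1* below. Over all genes at that level, 2.49% were past it above and 1.02% below. The summed mean of the 13 markers was 7320 in controls against 6132 in mutants. Of 9 osteoblast and cementoblast markers at this level, *Spp1* was past the fold above and *Dmp1*, which that list shares with the odontoblasts, below, at 68.1 and 23.7. Their median log2 ratio was -0.22, and all 11 markers of that list in the table summed to 24066 and 19584, led by *Col1a1*. The bone markers *Ibsp* and *Bglap* had log2 ratios of 0.06 and -0.27.

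Markers of other cell types are given by list, beside 2.49% higher and 1.02% lower past the fold over all genes that reached a mean of 10 in 1 group. The 4 cartilage markers at this level had a median log2 ratio of -0.22, with *Acan* past the fold below at 30.6 and 14.1, *Sox9* the most abundant at 299.2 and 251.2, and *Col2a1* low at 2.65 and 2.67. All 7 cartilage markers in the table, those under the minimum included, summed to 609.7 and 514.1. Only *Acan* of these genes was past the fold. The 7 perivascular markers had a median of -0.17 and a sum of 681.6 and 634.6, led by *Rgs5*, with *Tagln* above and *Kcnj8* below. Vascular smooth muscle expresses *Tagln*, and *Kcnj8* marks pericytes. Endothelial markers had a median of 0.06 and a sum of 393.3 and 412.5, led by *Cdh5*, with none past the fold. The 5 macrophage and blood markers at this level had a median of 0.22, and all 7 in the table summed to 191.9 and 192.3, led by *Csf1r*, with *Hbb-bs* past the fold below at 29.0 and 9.97, a gene that reached the minimum in the controls only. Hemoglobin genes such as *Hbb-bs* come from red blood cells. The 3 glial markers at this level had a median of 0.01, and all 6 in the table summed to 122.8 and 126.4, led by *Ncam1*. None of the 7 muscle markers in the table reached a mean of 10, and their sum was 7.04 and 5.95, led by *Acta1*. The part of these cell types in the values of the 8 genes was not tested.

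Promoter sequences from RefSeq (GRCm38.p6), 250 bases before to 50 after the transcription start, were matched for 6 of the 8 genes with 10 windows in all, and *Spon1* and *Mkx* were not matched in the promoter table used here. The motifs searched on both strands were the TATA box TATAAA, the E-box CANNTG bound by factors such as scleraxis and Twist1, the GLI motif GACCACCCA, the SMAD site CAGACA and the cAMP response element TGACGTCA. Over all 32851 windows in RefSeq, these were present in 13.6%, 72.3%, 0.253%, 21.0% and 1.79%, respectively. None of these letter strings contains another. The GLI motif and the cAMP response element matched none of the 10 windows, which says only that these letters are not there. The windows of *Pthlh*, *Tnmd* and *Postn* are shown because, of the matched genes, these had the highest ratios of mutant to control. Capitals mark every match of the 5 motifs, and each sequence runs 5′ to 3′ on the strand of the gene.

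The *Pthlh* window, chr6:147263964-147264263 on the minus strand, was the richest in G and C of the 10 at 74.0%, beside a median of 52.7% over all windows. It held E-boxes at positions 212 and 256 and no TATA box, with positions counted from 1 at its 5′ end.
Pthlh: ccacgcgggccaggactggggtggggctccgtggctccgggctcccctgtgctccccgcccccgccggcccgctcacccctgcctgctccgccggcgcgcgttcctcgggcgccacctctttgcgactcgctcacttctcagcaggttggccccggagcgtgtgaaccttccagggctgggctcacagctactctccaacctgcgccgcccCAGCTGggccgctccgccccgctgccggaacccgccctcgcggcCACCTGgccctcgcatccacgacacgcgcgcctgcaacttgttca
The *Tnmd* window, chrX:133850758-133851057 on the plus strand, held none of the 5 motifs and had 40.0% G and C.
Tnmd: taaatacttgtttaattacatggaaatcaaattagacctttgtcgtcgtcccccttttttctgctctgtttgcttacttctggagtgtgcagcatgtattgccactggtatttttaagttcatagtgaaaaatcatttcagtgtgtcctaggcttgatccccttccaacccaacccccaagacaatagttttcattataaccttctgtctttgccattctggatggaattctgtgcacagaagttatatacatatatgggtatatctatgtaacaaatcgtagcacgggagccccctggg
*Postn* has 2 windows, and the one at the annotated gene start, chr3:54360857-54361156 on the plus strand, held a TATA box at position 225 and no other motif.
Postn: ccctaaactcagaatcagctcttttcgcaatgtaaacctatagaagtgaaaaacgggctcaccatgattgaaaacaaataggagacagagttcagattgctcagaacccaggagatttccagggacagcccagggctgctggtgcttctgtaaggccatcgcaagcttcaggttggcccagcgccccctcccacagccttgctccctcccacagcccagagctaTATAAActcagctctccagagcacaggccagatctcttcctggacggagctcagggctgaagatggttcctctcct
These 3 windows thus differed in base composition and in motifs, and a match is a description of the sequence only.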

How the data were processed

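RNA of proximal incisor mesenchyme was sequenced in 3 control and 3 mutant samples. Read trimming, alignment to mm10 and the group comparison were done by the authors with Partek Flow; TopHat2 2.0.8 is named in the submitters' processing notes. Counting, annotation and strand use are not given in the sources used here. The deposited table gives for each gene the authors' mean of a normalized signal per group, which is not divided by length. Its p-value, FDR, ratio and fold change columns and its filtered version hold the authors' own comparison and were not used. A second deposited table summarizes the signal of each library; its upper quartiles lie between 44.57 and 44.58, and 2 of its columns were not used. Reads per library and gene were estimated by taking the signal as the number of reads plus 1 times the library's lowest value, which is an inference.

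Ratios of the means were computed, with 1.5-fold as in the study's methods and no test, since the values used here are group means. The planned test on values per sample therefore did not apply. Replicates are separate samples by their labels. Coordinates and exon lengths came from GENCODE vM21 on GRCm38, the assembly of mm10, where 18840 of 19270 names matched 1 gene. The genes and the 17 lists were chosen with earlier results of these data known. Named genes were the 8 genes, the label checks and, per list, the most abundant gene and up to 3 genes past the fold in each direction with a mean of at least 10 in 1 group; any further gene was picked with its values in view. Counting was tested on simulated data. Python 3.11.15, numpy 2.4.6, pandas 2.3.3 and matplotlib 3.10.9 were used.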

Additional observations from a re-analysis of the deposited data

How the results depend on the processing

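With the lower alternative fold, a log2 ratio of 0.32 in place of 0.58, 4 of the 8 genes were past it above (*Postn* and *Tnmd* joined *Spon1* and *Pthlh*), and with a fold of 2 it was 0. Over all genes, 1421 were past 1.5-fold above and 1117 below. These counts were 2627 and 2475 at the lower fold, 583 and 413 at a fold of 2, 470 and 188 with a pseudocount of 1, 262 and 107 where 1 group's mean reached 10, and 222 and 94 where the mean over both groups did and 169 and 73 where each group's mean did, the last 2 chosen after seeing the data. Fewer genes were counted in the last 3. Of the genes of the 7 lists with a mean of at least 10 in 1 group, 10 were past the fold above and 2 below. These counts were 17 and 11 at the lower fold and 4 and 1 at a fold of 2. The counts over all genes at those folds include genes under that mean, so they are no like background, and nothing is read from these list counts. With the longest transcript or, added after seeing the data, the longest protein-coding transcript as the length, 3 of the 8 genes kept their place in the order of control levels. Centring and subtraction of the value at no reads changed the sign of no log2 ratio among the 8 genes; a fold, a minimum mean or a pseudocount cannot change it.

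No paired analysis was possible because the table gives group means and no values per sample, and for the same reason leaving out each replicate was not run. At the estimated reads given for *Scx*, *Cilp* and *Tnfsf11*, ratios rest on few reads.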
